A study of Homo sapiens with 9 samples.

Results

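Long intergenic non-coding RNAs (lincRNAs) were examined in LN229 glioblastoma tumours that carried an active form of TAZ or an empty vector. The members were chosen by the gene description in the deposited table, which had to contain the words for a long intergenic non-protein coding RNA, and by a mean level of at least 5 over the 9 tumours. Level means CPM, read counts scaled to library size, plus the authors' prior of 0.145 CPM. Of 393 such rows in a table of 18364 genes, 74 reached that level, and UCA1 was added by name because of its known difference, which makes 75 members. The mean over all tumours chose the members, so a lincRNA that reached it through 1 group alone had to differ between groups. The rows just inside the limit were LINC01144 at 5.01, LINC00987 at 5.02 and LINC00520 at 5.03, and those just outside were LINC00847 at 4.63, LINC01163 at 4.47 and LINC00896 at 4.40.

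The tumours were grown in the brains of nude mice, which lack T cells, from LN229 cells, a widely used human glioblastoma line, and were collected at the terminal stage. There were 6 tumours from cells with TAZ-4SA, an altered TAZ protein, and 3 from cells with the empty vector alone (EV). The comparison addressed which genes respond when TAZ is active in glioblastoma. Neither the promoter of the transgene, nor whether each line is 1 clone, nor the age of the mice is given in the sources used here. The labels do not tie a tumour to an animal, and p-values therefore describe variation between the libraries at hand.

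LincRNAs are transcribed by RNA polymerase II between protein-coding genes, and most are spliced and polyadenylated like messenger RNAs. Some stay in the nucleus and act on chromatin or on neighbouring genes, while others bind proteins or microRNAs in the cytoplasm. They are typically less abundant and more restricted to particular cells than messenger RNAs. TAZ does not bind DNA itself and acts through TEAD transcription factors, which often share regulatory elements with the AP-1 factors.

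WWTR1, which encodes TAZ, stood at 218 CPM in the lowest, a median of 333 and 449 in the highest TAZ-4SA tumour, and at 123, 119 and 116 CPM in the EV tumours. The libraries held between 3144861 and 31468135 reads in TAZ-4SA and between 17314672 and 21576264 in EV. The TAZ-4SA libraries detected fewer genes, with 2990 to 7365 genes at 0 reads against 505 to 622. All 10 markers fixed for the glioblastoma line were detected in EV and summed to 2454 to 3831 CPM in TAZ-4SA and 3461 to 3822 in EV. CD44, SOX9 and EGFR were called higher, NES and S100B lower, and VIM, SOX2, GFAP, OLIG2 and PTPRZ1 were not called. OLIG2 and S100B had 0 reads in 3 TAZ-4SA tumours each, SOX2 and PTPRZ1 in 2 each and GFAP in 1. Human genes that mark other brain cells also had reads. The 6 neuron markers summed to 84.5 to 1291 CPM in TAZ-4SA and 29.7 to 133 in EV. The 6 microglia and macrophage markers summed to 54.7 to 142 against 16.1 to 25.6 CPM, most of it CD68. PTPRC and TYROBP of these had 0 reads in 5 TAZ-4SA tumours each. Of 5 oligodendrocyte markers, with sums of 8.52 to 320 against 192 to 275 CPM, MOG and MOBP had 0 reads in every TAZ-4SA tumour, as had the microglia marker P2RY12. Astrocyte markers (5 genes) summed to 61.6 to 109 against 38.1 to 57.7 CPM, and endothelial markers (6 genes) to 0.101 to 13.2 against 12.04 to 16.9. Whether these reads came from host cells or from the tumour cells was not tested, nor was the part of host cells in the lincRNA values. In bulk tumours fewer cells of a type and less RNA per cell cannot be told apart.

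Promoter sequences show where the motifs of TEAD and AP-1 fall in lincRNAs that differed between the groups. RefSeq promoters (GRCh38), from 250 bases before to 50 after the start, were found for 51 of the 75 members, and the first listed start of each gene was used. Below are LINC02709 and LINC00664, both higher in TAZ-4SA, and LINC00673 and LINC03048, both lower. LINC02709 and LINC00673 were taken because each holds a motif, and LINC00664 and LINC03048 as one rise and one fall with none. Capitals mark the AP-1 motif TGANTCA in LINC02709 and the TEAD motif GGAATG in LINC00673.
LINC02709 (chr11:9759484-9759783, minus strand): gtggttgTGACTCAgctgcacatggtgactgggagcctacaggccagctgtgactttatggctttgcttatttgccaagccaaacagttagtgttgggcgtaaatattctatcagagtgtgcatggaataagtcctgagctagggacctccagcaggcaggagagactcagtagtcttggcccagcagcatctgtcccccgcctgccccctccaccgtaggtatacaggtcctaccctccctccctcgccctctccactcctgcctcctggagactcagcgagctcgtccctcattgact
LINC00664 (chr19:21483465-21483764, plus strand): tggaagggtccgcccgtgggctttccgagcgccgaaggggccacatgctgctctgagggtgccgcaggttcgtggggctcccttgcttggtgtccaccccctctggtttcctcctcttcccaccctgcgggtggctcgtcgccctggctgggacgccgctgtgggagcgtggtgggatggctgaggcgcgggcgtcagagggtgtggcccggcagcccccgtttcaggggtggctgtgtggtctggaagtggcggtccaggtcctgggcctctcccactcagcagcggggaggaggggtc
LINC00673 (chr17:72592755-72593054, minus strand): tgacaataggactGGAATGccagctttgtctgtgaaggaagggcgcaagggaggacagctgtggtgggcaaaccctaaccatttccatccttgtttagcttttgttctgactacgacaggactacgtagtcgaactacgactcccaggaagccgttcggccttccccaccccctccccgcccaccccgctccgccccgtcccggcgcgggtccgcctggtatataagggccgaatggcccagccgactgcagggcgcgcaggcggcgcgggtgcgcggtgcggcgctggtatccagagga
LINC03048 (chr17:81385333-81385632, minus strand): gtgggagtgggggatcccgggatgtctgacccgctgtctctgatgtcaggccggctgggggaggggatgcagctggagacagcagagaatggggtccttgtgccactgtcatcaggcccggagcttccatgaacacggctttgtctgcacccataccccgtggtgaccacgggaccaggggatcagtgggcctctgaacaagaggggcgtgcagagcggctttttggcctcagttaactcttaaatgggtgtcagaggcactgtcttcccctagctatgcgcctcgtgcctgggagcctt

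GGAATG, searched on both strands, was present in 6 of the 51 member promoters and in 14.03% of all 35116 promoters of the table. TGANTCA, which reads alike on both strands, was present in 8 of 51 against 7.71% of all promoters. Both motifs were found in 1 of the 51, and in 0 of them did matches of the 2 motifs overlap. Of 6 promoters of lincRNAs called higher, none held GGAATG and 1 held TGANTCA, and of 3 called lower, 1 held GGAATG. A match describes these letters only, and their absence says nothing about binding elsewhere.

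UCA1, named for urothelial cancer and chosen here for its difference, was the most abundant member by mean CPM. Its lowest TAZ-4SA tumour stood at 88.7 CPM, the median at 182 and the highest at 196, while EV tumours 1 to 3 had 0.234, 0 and 0.129 CPM. These values come from 13333 reads in TAZ-4SA and 7 in EV. The means were 159 ± 44.4 CPM (SD, n = 6) and 0.121 ± 0.117 CPM (SD, n = 3), and the 2 groups lay far apart. Set against library size, pooled reads were 1294 times higher in TAZ-4SA, with a 95% exact interval of 628 to 3219 that covers counting error only. UCA1 lies at chr19:15828947-15836321 (GRCh38, as are all positions here), and GENCODE gives it 4152 exonic bases and no exon shared with a coding gene.

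**Figure D1:**
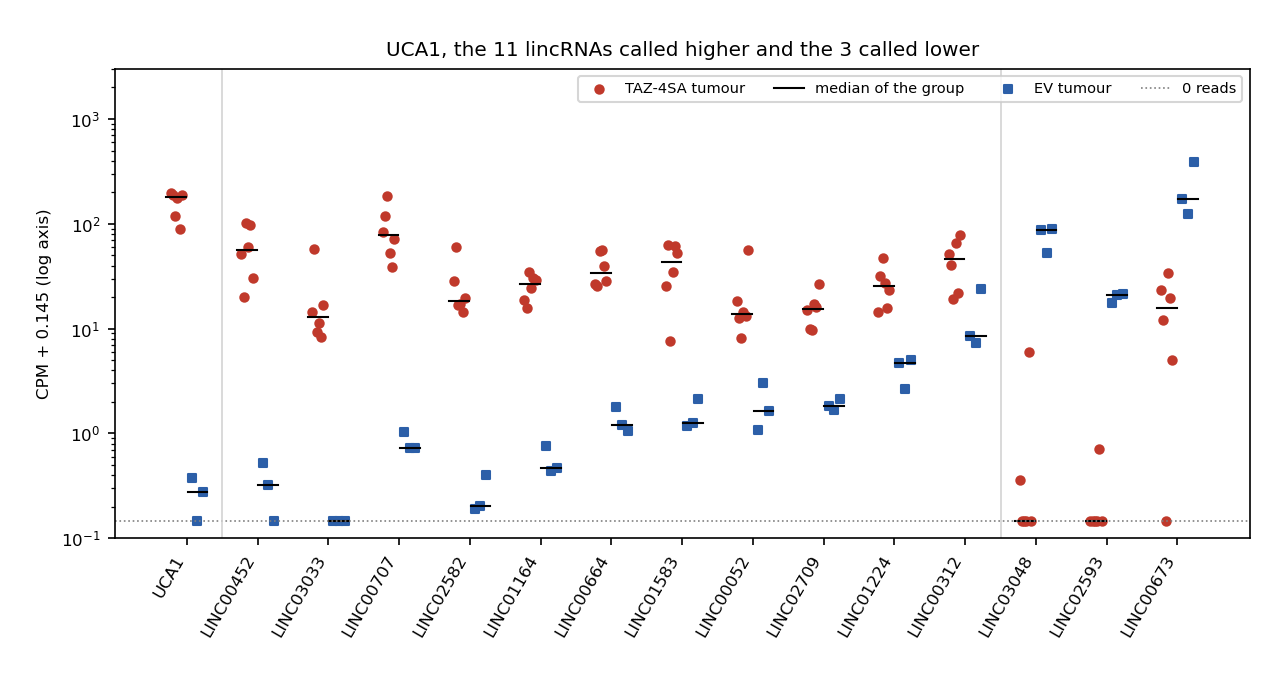
CPM plus 0.145 (log axis) in each tumour for UCA1, the 11 lincRNAs called higher and the 3 called lower in TAZ-4SA. Circles are TAZ-4SA tumours (n = 6), squares EV tumours (n = 3), black lines group medians, and the dotted line marks 0 reads. Circles and squares separate in every column except LINC00312.

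Besides UCA1, 11 of 74 lincRNAs were called higher in TAZ-4SA and 3 lower, at an adjusted p under 0.05 in limma, and 60 were not called. Over all 15578 genes tested, 9.02% were called higher and 13.3% lower, and over the 12115 genes of the members' level the shares were 11.6% and 10.1%. The members' median log2 fold change was -0.95, against -0.85 over all genes tested and -0.58 over genes of that level. How a lincRNA reached the level shaped these counts. Of 46 that reached a mean of 5 in both groups, 1 was called higher (LINC00312) and 1 lower (LINC00673). Among all 10464 genes that did so, 11.6% were called higher and 8.05% lower. The other 10 rises were all among the 18 lincRNAs that reached 5 in TAZ-4SA only, and the other 2 falls among the 10 that reached it in EV only. LincRNA rows below a mean of 5 showed the reverse balance, with 0 called higher and 31 lower (21.1%) of 147 tested. This balance was not particular to lincRNAs. Of all genes tested, 1405 were called higher and 2079 lower, and 1404 and 1228 of these had a mean of at least 5. Together, the 221 lincRNA rows tested held 11 called higher (4.98%) and 34 called lower (15.4%). The excess of rises over falls was thus seen in the 74 chosen by level, not in all lincRNA rows tested. It also depended on the fit. With limma-voom, run on reads recovered from the values, the 74 held 7 rises and 12 falls. With weights per tumour (array weights) they held 16 and 17.

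LINC00707 and LINC00452 were the 2 most abundant of the lincRNAs called higher. LINC00707 had 38.3 CPM in its lowest, 77.5 at the median and 183 in its highest TAZ-4SA tumour, and 0.890, 0.581 and 0.580 CPM in EV. It was higher in 6 of 6 TAZ-4SA tumours, with a log2 fold change of 6.61 (SE 0.66, limma adjusted p = 3.94e-05). LINC00707 lies at chr10:6779598-6842906 and has been described in several tumour types as an RNA that binds microRNAs. LINC00452, on the long arm of chromosome 13 beside GAS6, ranged from 19.9 through a median of 55.7 to 101.2 CPM in TAZ-4SA and had 0.375, 0.174 and 0 CPM in EV. Its log2 fold change was 7.48 (SE 0.97, limma adjusted p = 0.000275), and its EV values rest on 11 reads.

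LINC03033 had 0 reads in all 3 EV tumours. In TAZ-4SA it ranged from 8.12 to 56.7 CPM with a median of 12.7, the highest being tumour 2. The TAZ-4SA mean of 19.3 CPM, which tumour 2 raised, was 114-fold above EV set at 3 reads per library (0.169 CPM). LINC02582 was nearly as restricted, with 0.0468, 0.0581 and 0.258 CPM in EV from 6 reads, and 14.3, 18.2 and 60.2 CPM as the lowest, median and highest of TAZ-4SA. Both were called, with limma adjusted p of 0.00175 and 0.00143. Both also carry stretches nearly identical to other genes (at least 95% over at least 200 bases), 16 genes for LINC03033 and 7 for LINC02582. LINC03033 also shares 360 exon bases on the same strand with the coding model AL355916.2. Reads could have been shared with these genes, and the values are uncertain to that extent.

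LINC01164, near the end of chromosome 10, had 15.7, 26.5 and 34.2 CPM as the lowest, median and highest TAZ-4SA values, and 0.609, 0.291 and 0.322 CPM in EV (log2 fold change 5.52, SE 0.96, limma adjusted p = 0.00193). It was detected in all 9 tumours, but under 1 CPM in EV. LINC00664 had 25.6, 33.7 and 56.0 CPM against 1.64, 1.05 and 0.903 in EV (log2 fold change 4.80, SE 0.76, limma adjusted p = 0.00103). LINC00664 lies in a chromosome 19 cluster of zinc finger genes and shares 468 exon bases with coding models that include ZNF429, so reads of the 2 genes cannot be fully told apart. ZNF429, a zinc finger gene, had 7.34 ± 8.36 CPM (SD, n = 6) with TAZ-4SA, against 1.99 ± 0.69 CPM (SD, n = 3), and was not called.

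The remaining 4 rises with separate groups were smaller or more scattered. LINC01583 ranged from 7.44 through a median of 43.4 to 62.4 CPM in TAZ-4SA, against 1.03, 1.10 and 2.00 CPM in EV (log2 fold change 4.50, limma adjusted p = 0.00403). LINC00052 had 7.99, 13.8 and 55.6 CPM as its lowest, median and highest TAZ-4SA values and 0.937, 2.85 and 1.48 CPM in EV (log2 fold change 3.25, limma adjusted p = 0.0365). LINC02709 had 9.59, 15.4 and 26.6 CPM against 1.69, 1.51 and 2.00 CPM (log2 fold change 2.99, limma adjusted p = 0.0393). For LINC01224 the values were 14.3, 25.3 and 47.4 CPM against 4.54, 2.50 and 4.84 CPM (log2 fold change 2.64, limma adjusted p = 0.0232). The groups of these 4 did not overlap, but the calls of LINC00052, LINC02709 and LINC01224 were lost when any 1 of the EV tumours was left out, and those of LINC00052 and LINC02709 also without TAZ-4SA tumour 1 or 6. With limma-voom on the reads recovered from the values, none of the 4 was called.

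LINC00312, first described in nasopharyngeal carcinoma, was called (log2 fold change 1.83, SE 0.61, limma adjusted p = 0.048) although its groups overlapped. Its TAZ-4SA values were 18.9, 45.8 and 78.2 CPM at the lowest, median and highest, and EV tumour 3 at 23.5 CPM stood above 2 of them, while EV tumours 1 and 2 had 8.39 and 7.21 CPM. The call was lost in 13 of 20 alternative settings. LINC00641, named after its values were seen, showed the reverse case. All of its TAZ-4SA tumours, from 16.4 to 32.5 CPM, were above the EV values of 7.07, 5.81 and 9.22 CPM, yet it missed the threshold (log2 fold change 1.69, limma adjusted p = 0.065).

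Of the 3 falls, 2 were near losses of the transcript. LINC02593 had 17.5, 20.8 and 21.3 CPM in EV. In TAZ-4SA it had 0 reads in 5 tumours and 2 reads, or 0.560 CPM, in tumour 5 (log2 fold change -6.72, SE 1.02, limma adjusted p = 0.000817). Pooled reads were 780 times higher in EV, with a 95% exact counting interval of 215 to 6450. LINC03048 had 87.3, 52.2 and 88.6 CPM in EV, 0 reads in 4 TAZ-4SA tumours, 0.214 CPM in tumour 1 and 5.88 CPM in tumour 5 (log2 fold change -7.88, SE 1.42, limma adjusted p = 0.00233). Both were below EV in 6 of 6 TAZ-4SA tumours. The promoter of LINC03048, shown above, holds neither motif.

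LINC00673, downstream of SOX9 on chromosome 17, was the most abundant lincRNA of the EV tumours by CPM, at 172, 123 and 392.1. In TAZ-4SA the lowest, median and highest values were 0, 15.6 and 33.5 CPM, and tumour 3 was the one at 0 reads. The groups did not overlap (log2 fold change -4.82, SE 1.42, limma adjusted p = 0.0300). Its call was lost without any 1 of the EV tumours or without TAZ-4SA tumour 6, with log2 fold changes between -5.18 and -4.35 in those fits, and also without tumours 5 and 6 together, at -5.06. LINC00673 is the only one of the 3 falls that reached the level of 5 in both groups.

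Groups that did not overlap were counted for all 74. In 11, every TAZ-4SA tumour was above every EV tumour (13.8% of genes of that level), and in 8 every one was below (20.6% of them). Besides the 3 falls, the 8 were LINC01234, LINC01089, LINC01061, LINC00174 and LINC02604, named after their values were seen and not called. LINC01089 had 42.6 to 62.6 CPM in EV and ranged from 0 through 24.1 to 37.8 CPM in TAZ-4SA (limma adjusted p = 0.23). It shares 1724 exon bases on the same strand with the coding gene RHOF, so its reads are uncertain to that extent. LINC00174 had 37.4, 43.1 and 31.7 CPM against 0, 8.81 and 20.8 CPM (limma adjusted p = 0.15). LINC02604 was the only one of the 5 detected in every TAZ-4SA tumour, at 3.43, 12.7 and 27.5 CPM against 37.9, 32.3 and 30.6 CPM in EV (limma adjusted p = 0.17).

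**Figure D2:**
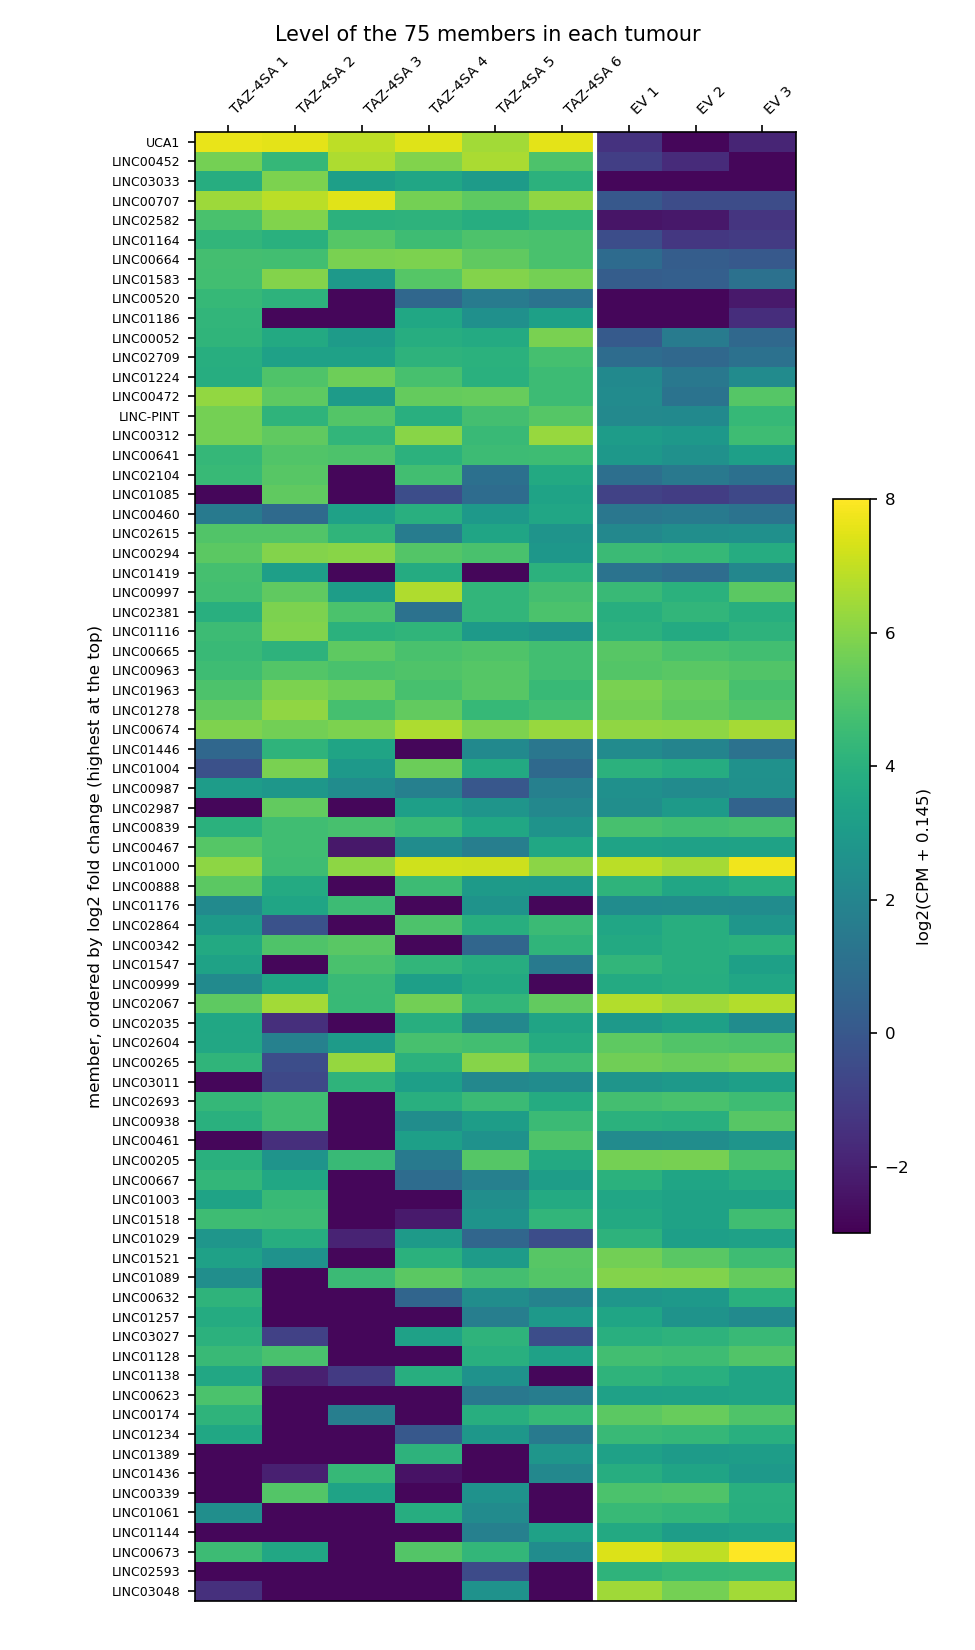
Level of each of the 75 members (rows, ordered by log2 fold change) in the 6 TAZ-4SA and 3 EV tumours (columns, separated by a white line). Colour gives log2(CPM + 0.145), with the darkest colour at 0 reads. The TAZ-4SA columns differ from one another, with 28 members at 0 reads in tumour 3 and 3 in tumour 5.

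Spread among the TAZ-4SA tumours was wide. Only 35 of the 74 lincRNAs had reads in all 6 TAZ-4SA tumours, 19 had 0 reads in 1 of them, 12 in 2, and 8 in 3 or more. Of the 75 members, the TAZ-4SA tumours had 9, 13, 28, 12, 3 and 7 at 0 reads and the EV tumours 3, 4 and 2. In lincRNAs with a mean of 5 to 10, the median SD of log2 values was 3.00 in TAZ-4SA and 0.28 in EV, and over all genes of that range it was 2.85 and 0.34. From 20 to 50, the medians were 1.09 and 0.42 for lincRNAs and 1.06 and 0.25 for all genes. In both ranges the lincRNA median lay close to that of all genes in TAZ-4SA, and in EV it was lower from 5 to 10 and higher from 20 to 50. Tumour 3 had the most absent lincRNAs: of 49 with a mean of 5 to 20, 25 had 0 reads there (51.0%, against 35.2% of all genes in that range), while in tumour 2 it was 11 of 49 (22.4%, against 41.0%). With 3144861 to 3299325 reads, tumours 5 and 6 had the fewest reads but not the most absent lincRNAs. The floor of 3 reads was 0.840 and 0.917 CPM there, below the level of most members.

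**Figure D3:**
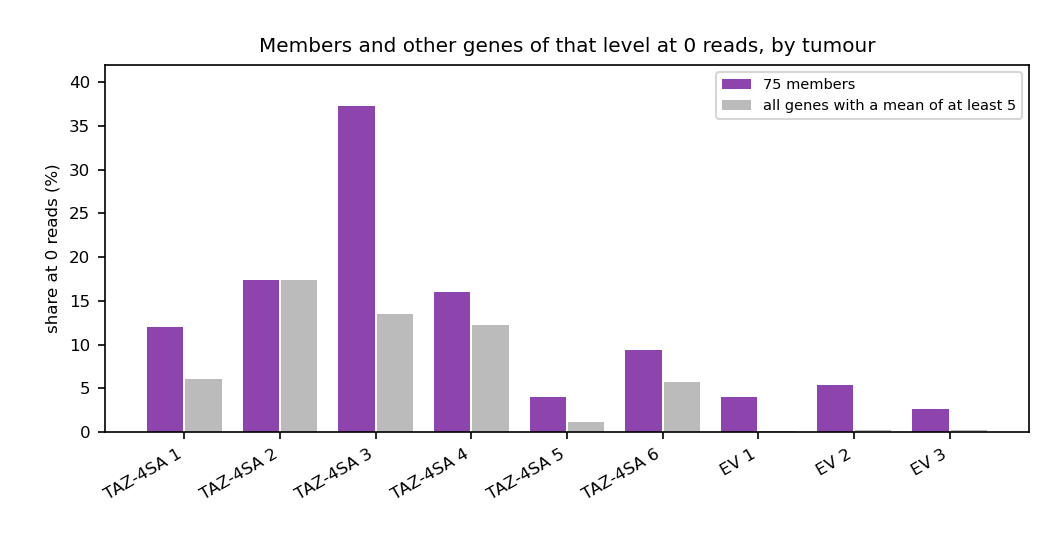
Share of the 75 members (purple) and of all 12115 genes with a mean level of at least 5 (grey) that had 0 reads, in percent, for each tumour. TAZ-4SA tumour 3 has the highest share of absent members, 37.3%, against 13.5% of the genes. The members are on average less abundant than those genes.

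Despite this scatter, the summed level of the 74 lincRNAs was similar in the groups. It lay between 1318 and 1682 CPM in TAZ-4SA and was 1618, 1390 and 1859 CPM in EV. The groups overlapped, and the sum held a different make-up: LINC00707 and LINC00452 were under 1 CPM in every EV tumour, and LINC03048 was under 6 CPM in every TAZ-4SA tumour.

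The most abundant lincRNAs by mean CPM included several that the test did not separate. LINC01000, on chromosome 7, had 24.1, 69.3 and 149 CPM at the lowest, median and highest of TAZ-4SA and 115, 92.04 and 218 CPM in EV (log2 fold change -0.83, SE 0.53, limma adjusted p = 0.27). LINC00674 was among the steadiest, with 50.3, 57.6 and 100.6 CPM against 72.4, 69.1 and 92.5 CPM (log2 fold change -0.25, SE 0.32, limma adjusted p = 0.59). LINC02067 came close to a call, with 19.3, 39.8 and 88.1 CPM against 107, 85.2 and 107 CPM (log2 fold change -1.39, SE 0.47, limma adjusted p = 0.051). Only TAZ-4SA tumour 2 reached the EV range, and without it LINC02067 passed the threshold. LINC01278, on the X chromosome, had 20.7, 33.6 and 72.4 CPM against 51.1, 39.8 and 32.0 CPM (log2 fold change -0.22, SE 0.45, limma adjusted p = 0.74). On a scale per kilobase of exon, the mean over 9 tumours was 96.1 CPM per kb for LINC00674, 25.6 for UCA1, 21.8 for LINC02067, 11.2 for LINC00452, 6.19 for LINC00707 and 6.09 for LINC01278. LINC00674 is the shortest of these at 734 bases, and part of it is nearly identical to SMURF2, so its value per length is uncertain.

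Members with a described role were given whatever their values. LINC-PINT, a p53-induced transcript that acts with Polycomb proteins, had 15.2, 29.3 and 52.3 CPM at the lowest, median and highest of TAZ-4SA and 4.36, 4.48 and 20.8 CPM in EV (log2 fold change 1.85, SE 0.71, limma adjusted p = 0.080). Its EV tumour 3 stood within the TAZ-4SA range. LINC00632, the precursor of the circular RNA CDR1-AS, had 0 reads in 2 TAZ-4SA tumours and at most 17.4 CPM, against 6.79, 7.33 and 15.6 CPM in EV. It shares 789 exon bases with the gene CDR1 on the opposite strand. The libraries do not mark strand, so reads there cannot be told apart. LINC00461, a brain-enriched transcript that hosts a miR-9 gene, had 0 reads in TAZ-4SA tumours 1 and 3 and 31.5 CPM in tumour 6, against 4.87, 5.06 and 6.58 CPM in EV. LINC00520 reached 20.46 and 17.1 CPM in TAZ-4SA tumours 1 and 2 and 0 to 2.80 CPM in the others, and had a single read over the 3 EV tumours (limma adjusted p = 0.069). None of these 4 was called.

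Of the other lincRNAs with a described role, LINC00665 and LINC00467, both reported to encode small peptides, and LINC00963 are widely expressed. LINC00963 had overlapping groups, with 24.1 to 33.9 CPM in TAZ-4SA and 32.8, 35.8 and 32.6 CPM in EV (log2 fold change -0.21, SE 0.37). LINC00665 ranged from 17.1 to 38.05 CPM against 35.1, 28.5 and 25.1 CPM (log2 fold change -0.16, SE 0.43). LINC00467 ranged more widely, from 0.0615 CPM in TAZ-4SA tumour 3 to 34.4 CPM in tumour 1, around EV values of 10.4, 9.54 and 9.93 CPM. LINC00460, LINC01116 and LINC00839 were not called either, with log2 fold changes of 1.32, 0.11 and -0.70. Among 4 of this list below the level of 5, LINC00511 was called lower, with 0 reads in every TAZ-4SA tumour and 3.23, 2.21 and 2.51 CPM in EV (limma adjusted p = 0.00358). LINC00473, LINC00941 and LINC01133 were not called.

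One EV tumour differed from the other two in a set of members. In 9 of the 74 lincRNAs, EV tumour 3 was more than 2-fold above the next EV tumour, against 4.02% of genes of that level. This was so in 1 for EV tumour 1 and in 0 for EV tumour 2. The 9 were LINC-PINT, LINC00312, LINC00472, LINC00520, LINC00632, LINC00673, LINC00938, LINC01186 and LINC02582. In LINC00472, for example, the EV values were 4.78, 2.15 and 34.4 CPM, and TAZ-4SA ranged from 8.11 to 73.3 CPM. The 2-fold limit was set after seeing the data, and 3 of the 9 had at most 6 reads in EV.

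Nearest protein-coding genes were compared with the lincRNAs, since some lincRNAs share a regulatory region with a neighbour. A neighbour was tested for 60 of the 74, at a median distance of 95.9 kb over these pairs. Of the 11 rises, 2 had a neighbour called higher, 0 a neighbour called lower and 9 a neighbour not called. Over all genes tested, 9.02% were called higher and 13.3% lower. LINC03033, whose reads are uncertain as given above, starts 125 kb from HIF1A, the oxygen-regulated transcription factor subunit, which had 854 ± 352 CPM (SD, n = 6) with TAZ-4SA against 18.5 ± 2.39 CPM (SD, n = 3) (log2 fold change 5.43, limma adjusted p = 1.06e-06). LINC01224 starts 20.6 kb from ZNF91, a repressor of retroelements, at 22.7 ± 14.3 CPM (SD, n = 6) against 3.15 ± 0.77 CPM (SD, n = 3) (log2 fold change 2.59, limma adjusted p = 0.0498). GAS6, a ligand of TAM receptor kinases 31.0 kb from LINC00452, had 123 ± 113 CPM (SD, n = 6) against 17.9 ± 3.06 CPM (SD, n = 3) and was not called.

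All 3 falls had a neighbour that was called, 2 of them lower and 1 higher. The shares over all genes tested were 13.3% lower and 9.02% higher, and a link between falls and neighbours was not tested. LINC02593 starts 4.23 kb from SAMD11 on the opposite strand. SAMD11 had 0.793 ± 1.94 CPM (SD, n = 6) with TAZ-4SA against 10.8 ± 5.18 CPM (SD, n = 3) (log2 fold change -5.29, limma adjusted p = 0.0139). LINC03048 starts 10.1 kb from BAHCC1, a chromatin protein, which had 37.2 ± 26.3 CPM (SD, n = 6) against 168 ± 37.4 CPM (SD, n = 3) (log2 fold change -2.51, limma adjusted p = 0.0129). LINC00673 and SOX9, a transcription factor of glia and cartilage, went in opposite directions over 472 kb. SOX9 had 27.1 ± 12.1 CPM (SD, n = 6) against 2.61 ± 1.06 CPM (SD, n = 3) (log2 fold change 3.18, limma adjusted p = 0.0223).

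Among the 46 lincRNAs not called that had a tested neighbour, 9 neighbours were higher, 6 lower and 31 not called. For all genes tested the shares were 9.02% higher and 13.3% lower. Of the 6 pairs that start within 5 kb on opposite strands, LINC02593 with SAMD11 is given above. The closest, LINC00205 at 0.157 kb from POFUT2 and LINC01547 at 0.216 kb from SLX9, had neighbours that were not called (limma adjusted p = 0.11 and 0.52). LINC01389 lay 0.727 kb from FOXD2, a forkhead factor called lower, and LINC01521 lay 0.413 kb from PATZ1, a zinc finger factor called lower. LINC00938, 1.79 kb from the chromatin remodelling subunit gene ARID2, had a log2 fold change of -1.73 while ARID2 was called higher at 1.51. Across the 60 pairs the 2 log2 fold changes had a Pearson r of 0.42 and a Spearman rho of 0.42, and across the 19 pairs within 50 kb they were 0.64 and 0.67. These are descriptions across pairs that share libraries, and some pairs share a neighbour. LINC01089 with RHOF and LINC00664 with ZNF429, both within 50 kb, share exon bases on the same strand, so their values are not independent. The libraries do not mark strand, so reads from overlapping opposite genes cannot be separated.

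**Figure D4:**
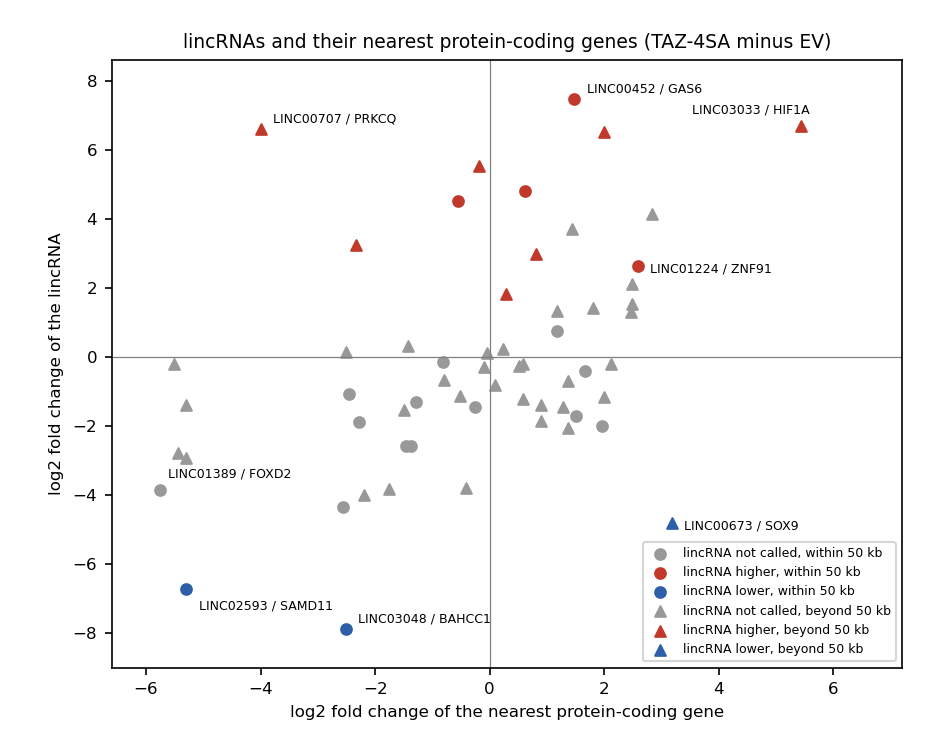
Log2 fold change (TAZ-4SA minus EV) of each lincRNA (vertical axis) against that of its nearest protein-coding gene (horizontal axis), for 60 pairs. Red lincRNAs were called higher, blue lower and grey not called, and circles are pairs within 50 kb and triangles pairs beyond. LINC03033 with HIF1A lies at the upper right, LINC02593 with SAMD11 at the lower left, and LINC00673 with SOX9 at the lower right.

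Other long non-coding RNAs came from a list of 50, of which 45 were in the table and 38 were tested. Of these, 6 were called higher, 3 lower and 29 not called, with a median log2 fold change of -0.50. The shares over all 15578 genes tested were 9.02% higher and 13.3% lower, with a median of -0.85. MALAT1, a nuclear speckle RNA, had 885 ± 348 CPM (SD, n = 6) with TAZ-4SA against 170 ± 63.8 CPM (SD, n = 3) (log2 fold change 2.33, limma adjusted p = 0.00124). NEAT1, the scaffold of paraspeckles, had 839 ± 163 CPM (SD, n = 6) against 467 ± 68.1 CPM (SD, n = 3) (log2 fold change 0.83, limma adjusted p = 0.0241). CYTOR and MIR4435-2HG, near-identical copies on chromosome 2 whose reads may be shared, had log2 fold changes of 3.13 and 3.04 (limma adjusted p = 0.000379 and 0.00224). The 3 that fell were DANCR, at 38.4 ± 10.4 CPM (SD, n = 6) against 132 ± 9.43 CPM (SD, n = 3), HOTAIR, a HOXC cluster transcript, at 0.606 ± 1.49 CPM (SD, n = 6) against 14.6 ± 3.58 CPM (SD, n = 3), and the imprinted H19, at 0.0410 ± 0.1004 CPM (SD, n = 6) against 3.79 ± 1.35 CPM (SD, n = 3). Their limma adjusted p values were 0.00261, 0.00660 and 0.00416.

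Other classes of non-coding gene were counted at the same level of 5. Of 151 antisense RNAs, 3 were called higher and 9 lower, with a median log2 fold change of -1.53. Of 37 divergent transcripts, 0 were called higher and 2 lower, and of 19 small nucleolar RNA host genes 0 and 1. For 9 microRNA host genes the counts were 1 and 3. Protein-coding genes of that level, 11506 in number, were called higher in 11.9% and lower in 10.3%, with a median log2 fold change of -0.54.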

How the data were processed

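Per the labels' protocols, total RNA was taken with TRIzol from the 9 tumours and libraries were made with SMART-Seq and Nextera XT kits, which do not mark strand. The authors used HISAT2, edgeR and the GRCh38 build, per the submitters' processing notes. How genes were counted or filtered, and whether mouse reads were set aside, is not given in the sources used here. Values were deposited by the authors as log2 CPM with a prior of 0.145 CPM. Removing the prior gave whole reads (100% of values under 5000 reads within 0.1 read).

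Groups were compared with limma 3.58.1 under R 4.3.3, with intensity trend and robust variance, on the deposited log2 values of 15578 genes with a mean of at least 1, adjusted by Benjamini-Hochberg at 0.05. Positive values mean higher in TAZ-4SA. The fit was tested on simulated data with the same spread in both groups. In the real data the lincRNAs' median SD of log2 values was 2.51 in TAZ-4SA and 0.31 in EV. The simulation does not cover such unequal spread. Prior values compress folds of genes near 0 reads. Counting intervals (95%) and floors of 3 reads cover counting error only. Exons and copies come from GENCODE 29, and starts, neighbours and promoters from RefSeq.

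Members and gene lists were chosen with earlier results of these data known. Named genes were UCA1, up to 10 called members per direction with separate groups, the 8 highest by mean CPM, a list with described roles, the 3 rows on each side of the limit, up to 4 called other long non-coding RNAs per direction, and neighbours of these. Alternatives covered pseudocounts, scaling, filters, weights, test, block and left-out tumours.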

Additional observations from a re-analysis of the deposited data

Results flagged for a closer look

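Gaps between the TAZ-4SA tumours were measured on the log2 values. Of 30 named members, 4 had 1 tumour set apart by a gap above Dixon's 95% critical share of the range for 6 samples. Chance gives about 1 in 20 where values are normally distributed, which was not tested. LINC03033 was highest in tumour 2 at 56.7 CPM, with the next at 16.5 CPM. LINC03048 and LINC02593 were both highest in tumour 5, at 5.88 and 0.560 CPM, where the next tumours had 0.214 and 0 CPM. For these 2 the chance rate does not apply, since 4 and 5 of the 6 tumours had 0 reads, and with 5 at 0 any read in the sixth exceeds the limit. LINC00673 was lowest in tumour 3 at 0 CPM, with the next at 4.89 CPM. The size of this gap on the log2 scale depends on the prior, so the chance rate may not apply here either.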

How the results depend on the processing

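The number of lincRNAs called higher was 11 in the reported fit. It was 7 with limma-voom on recovered reads (6 of them the same) and 16 with array weights. With 1 tumour left out it lay between 7 (without EV tumour 1 or 2) and 13 (without TAZ-4SA tumour 3). Over all 15578 genes tested, 1405 were called higher in the reported fit, 1291 with limma-voom and 2541 with array weights. With 1 tumour left out, 799 to 1685 of all genes were called higher. The number of lincRNAs called lower was 3 in the reported fit and lay between 2 and 4 with 1 tumour left out. It became 6 without TAZ-4SA tumours 2, 3 and 4, 17 with array weights and 12 with limma-voom. A pseudocount of 2 CPM gave 7 and a member minimum of 2 gave 17. Over all genes tested, 2079 were called lower in the reported fit, and 852 to 2688 with 1 tumour left out. That number was 2256 without TAZ-4SA tumours 2, 3 and 4, and 5612 with array weights. It was 3646 with limma-voom and 2635 with the pseudocount of 2 CPM. The causes were not tested. The median log2 fold change of the lincRNAs, -0.95, became -0.50 without TAZ-4SA tumours 2, 3 and 4 and -0.42 with a pseudocount of 2 CPM. Over all genes tested, the median of -0.85 became -0.49 and -0.42 in the same 2 settings. The lincRNA median became -1.46 with a member minimum of 2 and -0.25 with one of 10. Over left-out tumours it ranged from -1.10 to -0.56. LincRNAs entirely below EV numbered 8, and 8 to 13 with 1 tumour left out, the most without TAZ-4SA tumour 2. Leaving out a tumour can keep or raise this number but cannot lower it, and the matching numbers over all genes are not given here. With the replicate number as a block, 6 lincRNAs were called higher, and 604 of all genes tested. Same-numbered tumours correlated at 0.03, 0.00 and -0.05, and differently numbered ones at -0.04 to 0.08. With 3 same-numbered pairs, these values cannot decide whether the numbers pair the tumours. LINC00707, LINC00452, LINC03033, LINC02582, LINC01164, LINC00664, LINC02593 and LINC03048 kept their calls in all 20 settings. Each of these reached the level of 5 in 1 group only, so the choice of members favoured its call. No called lincRNA with separate groups changed direction. Leaving out tumours or changing the pseudocount could not have reversed groups that do not overlap. Of the named members not called, LINC00467, LINC00987, LINC01116 and LINC01278 changed sign between settings, within -1.34 to 0.13, -0.84 to 0.29, -0.54 to 0.86 and -0.54 to 0.09. The planned count test with edgeR was not run, and limma-voom was the test applied to recovered reads. Depth limits members near the floor of 0.840 and 0.917 CPM in TAZ-4SA tumours 5 and 6.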
